A study of Mus musculus with 36 samples.

Results

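Tissue macrophages were followed through 10 genes, Adgre1, Csf1r, C1qa, C1qb, C1qc, Cd68, Mrc1, Cd163, Lyz2 and Timd4, taken by symbol from the 78239 genes counted in each library. RNA of heart, kidney and liver was sequenced from untreated wild-type males of the inbred strain C57BL/6NCrl at 3 ages, namely 8, 10 and 12 weeks. Each of the 9 groups of tissue and age had 4 libraries, which makes 36 in all. The animals came from a commercial breeder, ate standard chow and were assigned at random to an age at sacrifice, so each age is a different set of mice. All were anesthetized with ketamine and xylazine and bled before the organs were frozen, the tissue was homogenized and no cells were sorted, so a level in these data is a share of the RNA of all cells of the organ. A smaller number of macrophages and less RNA of a gene per macrophage cannot be told apart in such samples. RNA of a member from other cell types cannot be set apart either.

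Macrophages live in every organ, where they engulf dying cells, debris and microbes. Most of those in the liver are Kupffer cells, which sit inside the sinusoids, the blood channels of the liver, and clear particles and old red cells from the blood. Macrophages of the heart and kidney lie between muscle cells and around tubules. All of them depend on the receptor CSF1R, whose ligands are CSF1 and IL-34, and on the transcription factor PU.1, encoded by Spi1. Adgre1 encodes F4/80, the surface protein by which mouse macrophages are most often recognized. C1qa, C1qb and C1qc encode the 3 chains of C1q, the recognition molecule that starts the classical complement pathway and that macrophages secrete. Cd68 encodes a protein of the lysosome membrane and Lyz2 a lysozyme that cuts bacterial cell walls. Mrc1 encodes the mannose receptor and Cd163 the receptor that takes up haemoglobin bound to haptoglobin. Timd4 encodes TIM-4, a receptor for phosphatidylserine on dying cells that marks long-lived resident macrophages.

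In the GRCm39 annotation the C1q genes lie side by side on the minus strand in 20153 bases of chromosome 4, at 136623223 to 136626161 for C1qa, 136606009 to 136613511 for C1qb and 136616466 to 136620376 for C1qc. Timd4 and Cd68 lie on chromosome 11, at 46701620 to 46735177 and 69555037 to 69557067. Adgre1 lies at 57665573 to 57790527 of chromosome 17, Mrc1 at 14234151 to 14336926 of chromosome 2 and Cd163 at 124281606 to 124307560 of chromosome 6. Lyz2 lies at 117111557 to 117118346 of chromosome 10, with its paralog Lyz1 5351 bases away. Read pairs were counted over exons of a gene and without regard to strand, and a pair on exons of more than 1 gene was not counted. Hmgxb3 on the opposite strand shares 19.8% of the exon bases of Csf1r, and predicted genes on the opposite strand share 16.1% of those of Lyz2 and 8.64% of those of C1qc, so pairs that fell there were not counted.

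The bases upstream of C1qb and C1qc are shown because the levels of these neighbours followed each other most closely in liver, and those of Timd4 because no other member differed as much between liver and kidney. They come from the RefSeq promoter table, built on GRCm38.p6, and each was matched exactly and at a single place in GRCm39. They are printed 5′ to 3′ on the strand of the gene and stop where the annotated gene begins. Capitals mark GGAAGT and GAGGAA on either strand, the letters that ETS factors such as PU.1 bind, which were chosen after the sequences had been seen. A match of these letters is a description and not a binding site.
C1qb, chr4:136613512-136613761, minus strand: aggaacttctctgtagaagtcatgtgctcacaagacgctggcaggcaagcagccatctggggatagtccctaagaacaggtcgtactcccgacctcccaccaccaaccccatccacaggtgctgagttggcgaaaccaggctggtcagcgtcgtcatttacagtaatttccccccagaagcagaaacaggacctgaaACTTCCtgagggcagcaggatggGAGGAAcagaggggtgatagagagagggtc
C1qc, chr4:136620377-136620475, minus strand: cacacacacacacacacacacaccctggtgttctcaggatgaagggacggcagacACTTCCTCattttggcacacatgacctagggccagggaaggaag
Timd4, chr11:46701376-46701619, plus strand: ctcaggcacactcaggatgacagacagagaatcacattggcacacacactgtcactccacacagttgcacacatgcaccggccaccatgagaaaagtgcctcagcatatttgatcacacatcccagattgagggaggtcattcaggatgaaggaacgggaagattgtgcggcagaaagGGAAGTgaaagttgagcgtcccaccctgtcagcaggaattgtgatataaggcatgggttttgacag
Of the 10 genes, 7 were in the promoter table, and Adgre1, Csf1r and C1qa were not. Within 250 bases upstream of the RefSeq start, GGAAGT stood in 5 of these 7 and in 19.7% of the 32851 promoters of the table. GAGGAA stood in 4 of 7 and in 23.3% of all. For some members part of the 250 bases lay inside the annotated gene. Outside it lay 81 bases for Lyz2, 99 for C1qc, 176 for Mrc1 and 179 for Cd68. The GGAAGT of Lyz2, at positions -100 to -95, lay inside the gene. Because the letters were chosen after the sequences had been seen, these shares test nothing. Upstream of C1qb the letters stood apart, at positions -53 to -48 and -30 to -25 from the start, and upstream of C1qc they overlapped in a single stretch. Of the 250 bases upstream of the RefSeq start, 152 were the same in Lyz2 and Lyz1 (60.8%). Of the 100 next to that start 92 were, bases that lay inside the annotated Lyz2 gene. Lyz1 reached at most 1.72 CPM in any library, and Lyz2 lay between 2.505 and 53.1 CPM. CPM stands for pairs of a gene scaled to the depth of its library, with TMM factors.

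The libraries held 21031599 to 33637390 counted pairs each. Liver libraries of a group scattered most, with a common coefficient of variation of 0.206, against 0.118 for heart and 0.113 for kidney. The organs carried their own markers: Myh6, the cardiac myosin, had at least 20763 CPM in heart, Slc34a1, a phosphate transporter of the proximal tubule, at least 3540 in kidney, and Alb, the albumin gene of hepatocytes, at least 66237 in liver. The liver library of replicate 4 at 8 weeks stood apart: it had the lowest level of its group in 10 of 10 macrophage genes and the highest Alb of the liver libraries at 122795 CPM. Liver replicate 2 at 10 weeks had the highest level of its group in 9 of 10. For the members, medians of differences between ages, counts without overlap and the median correlation are also given without these libraries where stated. Differences of single genes and of the other lists rest on all libraries unless stated.

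Csf1r, at 61229714 to 61266535 on the plus strand of chromosome 18, was the exception to an otherwise common order of organs. The kidney had lower levels than heart and liver for 9 of the 10 genes and a higher level for Csf1r. Csf1r lay between 46.8 and 70.3 CPM in the 12 kidney libraries, with a median of 54.2. In heart it lay between 29.8 and 47.2 CPM with a median of 37.0, and in liver between 25.1 and 83.1 CPM with a median of 47.1. Kidney and heart overlapped only at their edges, while the liver range covered both. EdgeR's quasi-likelihood test over all 36 libraries compared tissues by the mean of their 3 ages. In it Csf1r was 0.56 ± 0.090 (SE) log2 units higher in kidney than in heart (adjusted p = 8.21e-07 in edgeR). Its difference between liver and kidney was -0.28 ± 0.090 (adjusted p = 0.00558 in edgeR). The order of these 2 organs changed with age. Liver and kidney means of Csf1r were 43.2 and 52.0 CPM at 8 weeks, 67.3 and 52.6 at 10 weeks and 33.0 and 62.3 at 12 weeks. Hmgxb3, the gene on its other strand, lay between 20.6 and 28.3 CPM in kidney, 15.1 and 21.98 in heart and 15.9 and 20.996 in liver, so it was also highest in kidney, and its part in the level of Csf1r was not tested.

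The other macrophage genes in kidney were low. C1qa had 6.49 to 10.0 CPM there with a median of 7.49, against 28.03 to 46.5 in heart with a median of 36.04 and 21.7 to 70.8 in liver with a median of 35.95. No kidney library reached the lowest heart or liver library. The log2 difference between kidney and heart was -2.23 ± 0.091 for C1qa, -1.93 ± 0.099 for C1qb and -2.44 ± 0.098 for C1qc. It was -1.45 ± 0.15 for Adgre1 and -1.35 ± 0.14 for Cd68, and greater for Mrc1 at -3.14 ± 0.12 and Lyz2 at -3.45 ± 0.14. Of the 10 genes 10 passed the adjusted p of 0.05 between kidney and heart, where 86.1% of the 19716 genes tested passed it, and 10 between liver and kidney, where 83.1% did. Lower in kidney than in heart were 9 members and 39.0% of all genes, and higher were 1 member and 47.1%. Higher in liver than in kidney were 9 members and 37.0% of all genes, and lower were 1 member and 46.0%. The count is near that background, and the direction of the members is described by their median of -2.33 log2 units between kidney and heart, beside 0.15 over all genes.

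Cd163, the haemoglobin receptor, was the member whose kidney level was lowest after Timd4. It lay between 0.473 and 1.57 CPM in kidney with a median of 0.695, while heart had 23.0 to 57.2 CPM with a median of 39.3 and liver 11.7 to 57.2 with a median of 38.2. The log2 difference was -5.58 ± 0.23 between kidney and heart and 5.32 ± 0.23 between liver and kidney. Between liver and heart it was -0.26 ± 0.17 (adjusted p = 0.173 in edgeR), within the spread of the libraries.

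Timd4 was close to absent from the kidney counts. In the 12 kidney libraries 6 pairs fell on Timd4 among 331926894 counted, or 0.0181 CPM with an exact Poisson interval of 0.00663 to 0.0393 at 95% that covers counting error only, and 8 of the libraries had none. In heart Timd4 lay between 0.289 and 2.26 CPM with a median of 1.15, and in liver between 1.89 and 13.4 CPM with a median of 5.71. The liver was 2.30 ± 0.19 log2 units above the heart (adjusted p = 5.33e-13 in edgeR). No fold is given against kidney, because it would follow from the prior count of the fit.

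Between liver and heart the members did not share a direction. Of the 10, 5 were called higher in liver and 1 lower, where 84.2% of all genes were called, 42.2% higher and 42.0% lower. Beside Timd4 and Csf1r, those higher in liver were Mrc1 by 0.74 ± 0.10 log2 units, Cd68 by 0.71 ± 0.13 and Adgre1 by 0.55 ± 0.14. These differences are means over the 3 ages. At 12 weeks the liver and heart means were 10.2 and 10.7 CPM for Adgre1 and 33.0 and 33.8 for Csf1r. They were 34.9 and 32.6 for Mrc1, 5.88 and 3.79 for Cd68 and 4.84 and 1.37 for Timd4. Lyz2 was the member called lower in liver, by a difference of -1.30 ± 0.13 log2 units, with 35.3 to 53.1 CPM in heart and 8.80 to 31.1 in liver, ranges that did not meet. The C1q genes did not pass the test, with differences of 0.02 ± 0.086 for C1qa, 0.19 ± 0.094 for C1qb and 0.18 ± 0.091 for C1qc. Scaling decided the smaller differences. Plain library sizes shifted every gene by -0.27 log2 units between liver and heart, 0.53 between kidney and heart and -0.79 between liver and kidney, and with them Csf1r was 0.02 and Adgre1 0.29 log2 units above heart, with adjusted p of 0.835 and 0.0684, while C1qa was called lower in liver, by a difference of -0.24 with an adjusted p of 0.0118.

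**Figure D1:**
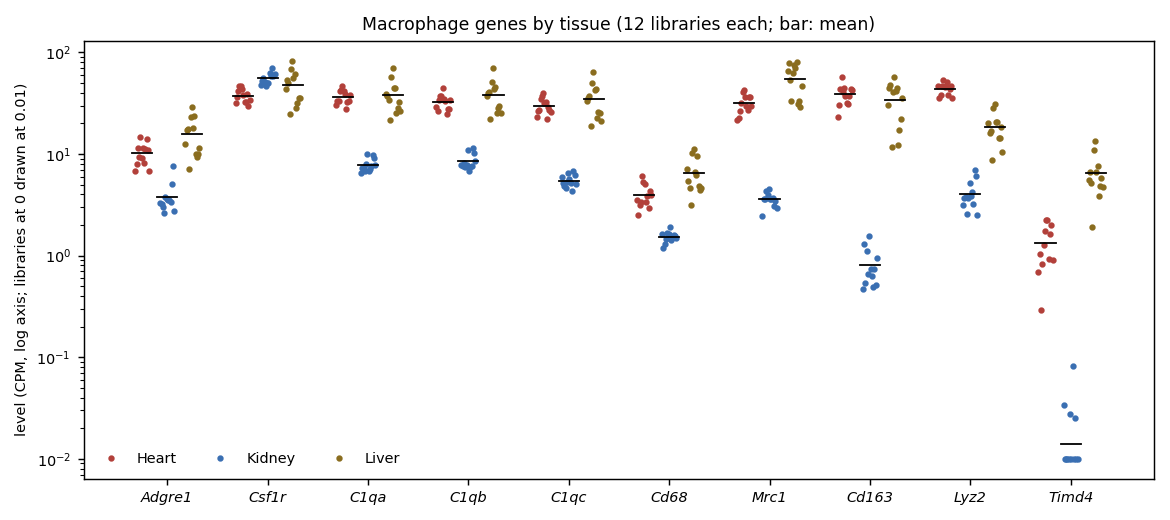
Level of each macrophage gene in CPM on a log axis, by gene on the horizontal axis, with a point for each of the 12 libraries of heart, kidney and liver and a bar for their mean; libraries at 0 are drawn at 0.01. The kidney means lie below those of heart and liver for all genes but Csf1r, whose kidney libraries lie between 46.8 and 70.3 CPM.

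The 10 genes were ranked within each organ per kilobase of the canonical transcript, a scale that depends on the transcript chosen. Levels and sums given elsewhere are in CPM and take no account of transcript length. In heart C1qa had the highest mean of the 10 at 33.8 CPM per kilobase, followed by C1qc at 16.1, Lyz2 at 14.7 and C1qb at 12.9. In liver the order began with C1qa at 35.4, C1qc at 18.9, C1qb at 15.1 and Mrc1 at 10.0. In kidney Csf1r came first at 9.20 CPM per kilobase and C1qa followed at 7.20. Timd4 was last in each organ, with 0.60 CPM per kilobase in heart, 0.0064 in kidney and 2.93 in liver.

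Genes that are known from macrophages of particular organs separated the organs further. Clec4f, a lectin of Kupffer cells, had 44.1 to 169 CPM in liver, at most 0.278 in heart and 0 in every kidney library. Cd5l, a protein secreted by Kupffer cells, had 33.5 to 141 CPM in liver and 0 in kidney. F13a1, a coagulation factor subunit made by resident macrophages, had 31.2 to 57.9 CPM in heart, 0.136 to 0.836 in kidney and 0.0485 to 1.99 in liver. Of the CSF1R ligands, Csf1 was highest in heart, with a mean of 35.6 CPM against 6.57 in kidney and 11.7 in liver. Il34 was highest in kidney, with a mean of 10.5 CPM against 4.33 in heart and 3.25 in liver. Spi1, the PU.1 gene, lay at 3.58 CPM in heart, 1.63 in kidney and 5.72 in liver, the order of most members and not that of Csf1r.

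The 3 ages were then compared within each organ, to learn whether the macrophage genes move between 8 and 12 weeks. In edgeR's test with Benjamini-Hochberg adjustment over all genes of the organ, 0 of the members passed an adjusted p of 0.05 in any of the 9 comparisons. An unadjusted p under 0.05 was reached by 0 of 9 members in kidney at 10 against 8 weeks, beside 16.5% of all genes. In liver at 12 against 10 weeks it was reached by 9 of 10, beside 14.1%. DESeq2 called between 0 and 8 members and limma-voom 0, and the shares of all genes that these tools called are not given here. In edgeR's test few genes of any kind were called in liver. These were 0.239% at 12 against 8 weeks, 0.0204% at 10 against 8 weeks and 0.0545% at 12 against 10 weeks. In heart 4.56%, 1.06% and 0.0396% were called in these comparisons, and in kidney 0.0567%, 0.929% and 0.482%. Comparisons that share an age share its 4 libraries and are not independent.

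**Figure D2:**
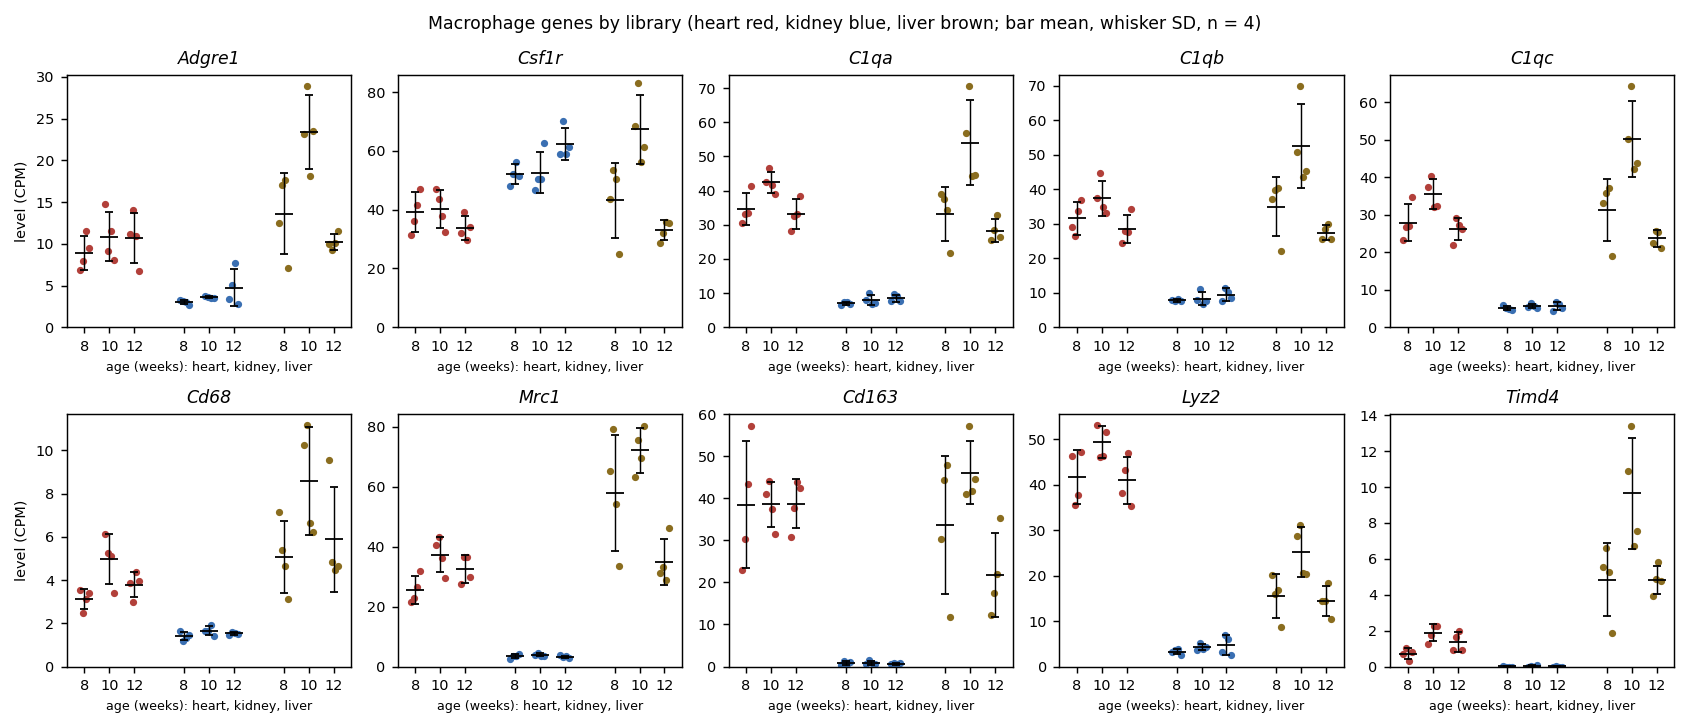
Level of each macrophage gene in CPM against age in weeks for heart, kidney and liver, with a point for each library, a bar for the mean of 4 and a whisker for the SD. In liver the libraries of 10 weeks lie highest for most genes, as for Csf1r with 56.3 to 83.1 CPM, against 28.6 to 35.9 at 12 weeks.

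In liver the macrophage genes were highest at 10 weeks. All 10 had a log2 difference above 0 at 10 against 8 weeks and below 0 at 12 against 10 weeks, though edgeR called none of them. The groups of 10 and 8 weeks did not overlap for 7 genes, all higher at 10 weeks, where 4.79% of all genes were higher without overlap. For 9 genes the groups of 12 and 10 weeks did not overlap, all lower at 12 weeks, beside 4.66% of all genes. The median log2 difference of the members was 0.68 at 10 against 8 weeks and -1.02 at 12 against 10 weeks, and the medians over all genes were -0.000583 and 0.00636.

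Adgre1, the F4/80 gene, had the greatest difference of the members at 12 against 10 weeks. At 8 weeks the liver libraries had 12.5, 17.1, 17.6 and 7.15 CPM of Adgre1. At 10 weeks they had 23.2, 29.0, 18.1 and 23.5 CPM, and at 12 weeks 9.93, 9.27, 10.1 and 11.5. Every library of 10 weeks lay above every other liver library. The log2 difference was 0.78 ± 0.23 (SE) at 10 against 8 weeks (adjusted p = 0.172 in edgeR) and -1.20 ± 0.23 at 12 against 10 weeks (adjusted p = 0.0717).

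Csf1r had 43.7, 53.5, 50.5 and 25.1 CPM in liver at 8 weeks. At 10 weeks it had 68.4, 83.1, 56.3 and 61.4 CPM, and at 12 weeks 28.6, 32.1, 35.9 and 35.3. The libraries of 10 weeks were again the 4 highest, and those of 12 weeks lay within the range of 8 weeks through replicate 4 of that age, with 25.1 CPM, and below its other 3 libraries. The log2 difference at 12 against 10 weeks was -1.03 ± 0.20 (adjusted p = 0.0717 in edgeR), while Hmgxb3 had 15.9 to 19.6 CPM at 10 weeks and 16.5 to 20.996 at 12 weeks.

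The C1q genes moved together. C1qc had 33.2, 35.8, 37.1 and 19.1 CPM in liver at 8 weeks, 50.1, 64.4, 42.3 and 43.7 at 10 weeks and 22.4, 25.7, 25.3 and 21.2 at 12 weeks. Its difference at 12 against 10 weeks, -1.09 ± 0.19 log2 units, came closest to the threshold of all members, with an adjusted p of 0.0573 in edgeR. C1qa and C1qb differed by -0.94 ± 0.19 and -0.95 ± 0.19 (adjusted p = 0.0717 each in edgeR), and their libraries of 10 weeks were also above all of 8 and 12 weeks.

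The receptors differed in what they did from 8 to 10 weeks. Timd4 had 5.57, 6.60, 5.24 and 1.89 CPM in liver at 8 weeks, 10.9, 13.4, 6.71 and 7.56 at 10 weeks and 3.90, 4.85, 5.84 and 4.75 at 12 weeks. It differed by 0.99 ± 0.32 log2 units at 10 against 8 weeks and by -1.002 ± 0.31 at 12 against 10 weeks (adjusted p = 0.200 and 0.178 in edgeR), without overlap in either comparison. Mrc1, the mannose receptor gene, had 65.3, 79.3, 54.1 and 33.5 CPM at 8 weeks, 63.2, 75.5, 69.6 and 80.5 at 10 weeks and 31.2, 33.2, 29.1 and 46.2 at 12 weeks. Its libraries of 8 and 10 weeks overlapped and those of 12 weeks lay below all of 10 weeks, with differences of 0.31 ± 0.22 and -1.05 ± 0.22 log2 units (adjusted p = 0.555 and 0.0717 in edgeR). Cd163 had 30.2, 44.4, 47.9 and 11.7 CPM at 8 weeks, 40.9, 57.2, 41.7 and 44.5 at 10 weeks and 12.2, 17.4, 21.9 and 35.4 at 12 weeks. At 12 against 10 weeks Cd163 differed by -1.09 ± 0.38 log2 units (adjusted p = 0.215 in edgeR).

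The lysosomal genes were less alike. Lyz2 had 8.80 to 20.2 CPM in liver at 8 weeks, 20.5 to 31.1 at 10 weeks and 10.4 to 18.5 at 12 weeks, without overlap between 10 weeks and either other age. Cd68 had 7.13, 5.38, 4.63 and 3.12 CPM at 8 weeks, 10.3, 11.2, 6.66 and 6.21 at 10 weeks and 9.54, 4.85, 4.47 and 4.65 at 12 weeks. It was the member whose groups of 10 and 12 weeks overlapped, through the library of 12 weeks with 9.54 CPM. That library, replicate 1, also had 151 CPM of Hmox1, the haem-degrading enzyme, where the other 3 of its group had 13.3 to 20.5, and the neutrophil genes summed to 22.5 CPM in it and to 1.31 to 3.65 in the others. Their part in the level of Cd68 was not tested.

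The direction of the liver differences was the same without the libraries that stood apart, while the calls depended on the fit. At 10 against 8 weeks the members' median was 0.50 without replicate 4 of 8 weeks and 0.53 without replicate 2 of 10 weeks. In both cases 7 genes stayed higher without overlap, beside 6.94% and 9.73% of all genes. At 12 against 10 weeks the median was -0.85 without replicate 2 of 10 weeks. There 9 genes were lower without overlap, beside 7.8% of all genes. At this comparison 6 members passed the adjusted p in edgeR when replicate 4 of 8 weeks, which enters only through the estimate of the spread, was left out, 5 passed in a fit of these 2 ages alone, 8 in DESeq2, 9 without a filter on low counts and 0 in limma-voom. The share of all genes called in each of these fits is not given here.

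**Figure D3:**
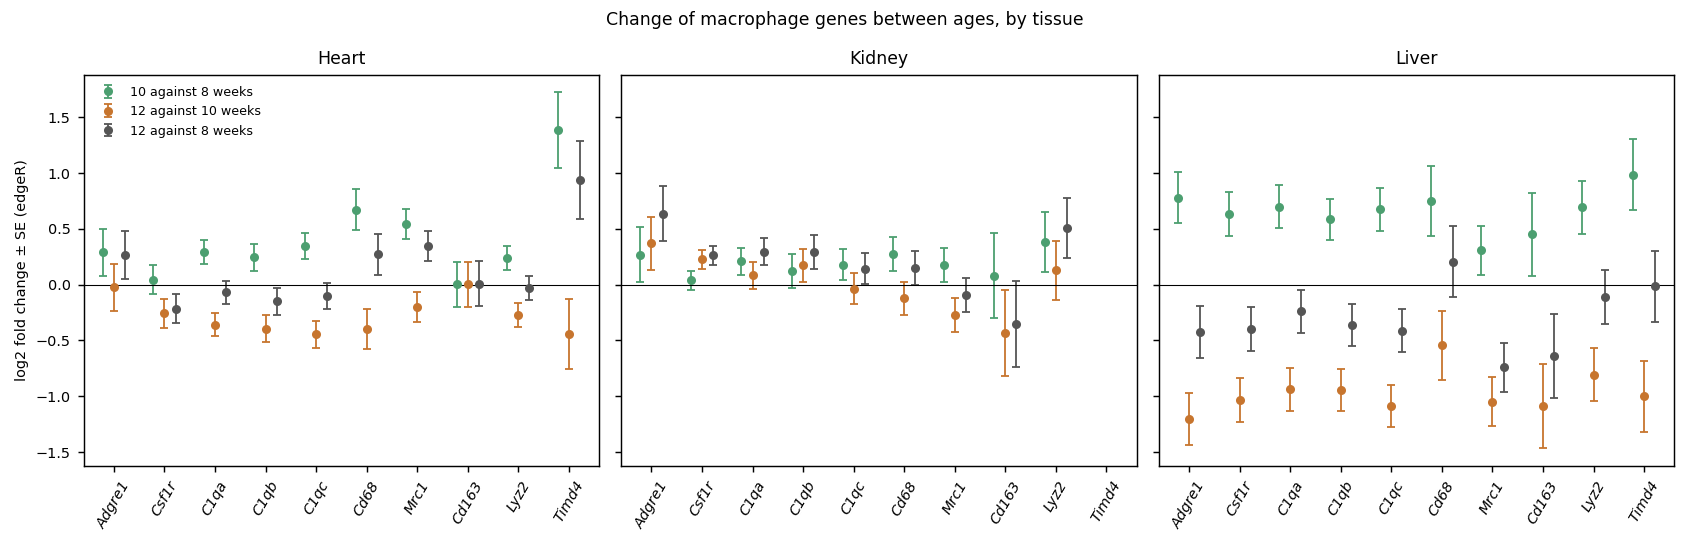
Log2 fold change of each macrophage gene with its SE from edgeR, for 10 against 8, 12 against 10 and 12 against 8 weeks in heart, kidney and liver; Timd4 was not tested in kidney. In liver the members lie between 0.31 and 0.99 at 10 against 8 weeks and between -1.20 and -0.54 at 12 against 10 weeks, and in kidney most lie near 0.

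At 12 against 8 weeks 9 of the 10 genes were lower in liver, with a median of -0.38 log2 units, and the groups overlapped for all 10, where 7.95% of all genes did not overlap. That overlap rested on replicate 4 of 8 weeks: without it Adgre1, Csf1r, C1qa, C1qb, C1qc and Mrc1, 6 of the 10, were lower at 12 weeks without overlap, beside 6.84% of all genes. Mrc1 had the lowest p of them, with -0.74 ± 0.22 log2 units and an adjusted p of 0.160 in edgeR, and it was the member that DESeq2 called. The 4 genes of sinusoidal endothelium, the cells that line the blood channels, were also all lower at 12 than at 8 weeks, with a median of -0.62 log2 units, 4 at an unadjusted p under 0.05 and sums of 108 to 203 CPM at 8 weeks and 86.7 to 127 at 12 weeks. The 5 endothelial genes were lower by a median of -0.51, 4 of them at an unadjusted p under 0.05, with sums of 87.8 to 145 CPM and 58.3 to 92.4. Of all genes 15.1% reached an unadjusted p under 0.05 at 12 against 8 weeks. In these lists edgeR called 0 genes, and their part in the level of Mrc1 was not tested.

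Other cell types of the liver were measured beside the macrophage genes. The 8 Kupffer cell genes were all higher at 10 than at 8 weeks, with a median of 0.69 log2 units, and all lower at 12 than at 10 weeks, with a median of -0.90, and edgeR called 0 of them. Their sum was 110 to 231 CPM at 8 weeks, 262 to 412 at 10 weeks and 150 to 171 at 12 weeks. Clec4f had 91.5, 97.2, 93.1 and 44.1 CPM at 8 weeks, 119, 169, 107 and 116 at 10 weeks and 60.6, 67.7, 63.9 and 71.0 at 12 weeks, the same order of ages as the members. The 4 genes of sinusoidal endothelium summed to 108 to 203 CPM at 8 weeks, 173 to 200 at 10 weeks and 86.7 to 127 at 12 weeks, with 4 of 4 lower at 12 than at 10 weeks and a median of -0.88. The 5 endothelial genes such as Pecam1, an adhesion protein of vessels, were also lower at 12 weeks, by a median of -0.85. The Alb level went the other way, with 66237 to 85523 CPM at 10 weeks against 91776 to 122795 at 8 weeks and 86611 to 115540 at 12 weeks. The monocyte genes summed to 5.73 to 17.7 CPM at 10 weeks and to 5.24 to 8.57 at 12 weeks, groups that overlapped. The neutrophil genes reached 23.1 CPM in replicate 2 of 10 weeks, where most macrophage genes were highest, and 2.79 to 4.98 in the other 3. Lists of other immune cells were higher at 10 than at 8 weeks without overlap in their sums. The genes of dendritic cells and MHC class II summed to 65.2 to 88.5 CPM at 8 weeks, 107 to 166 at 10 weeks and 71.3 to 142 at 12 weeks, with 6 of 6 tested genes higher at 10 than at 8 weeks and a median of 0.63. The B cell genes summed to 0.366 to 1.46, 1.68 to 2.28 and 0.824 to 2.16 CPM at these ages, and the genes of T and NK cells to 2.31 to 2.87, 3.02 to 3.63 and 2.52 to 5.09 CPM. In these 3 lists the libraries of 12 weeks overlapped those of 10 weeks, unlike the macrophage and Kupffer cell sums, and edgeR called 0 genes. The part of these cell types in the levels of the members was not tested.

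**Figure D4:**
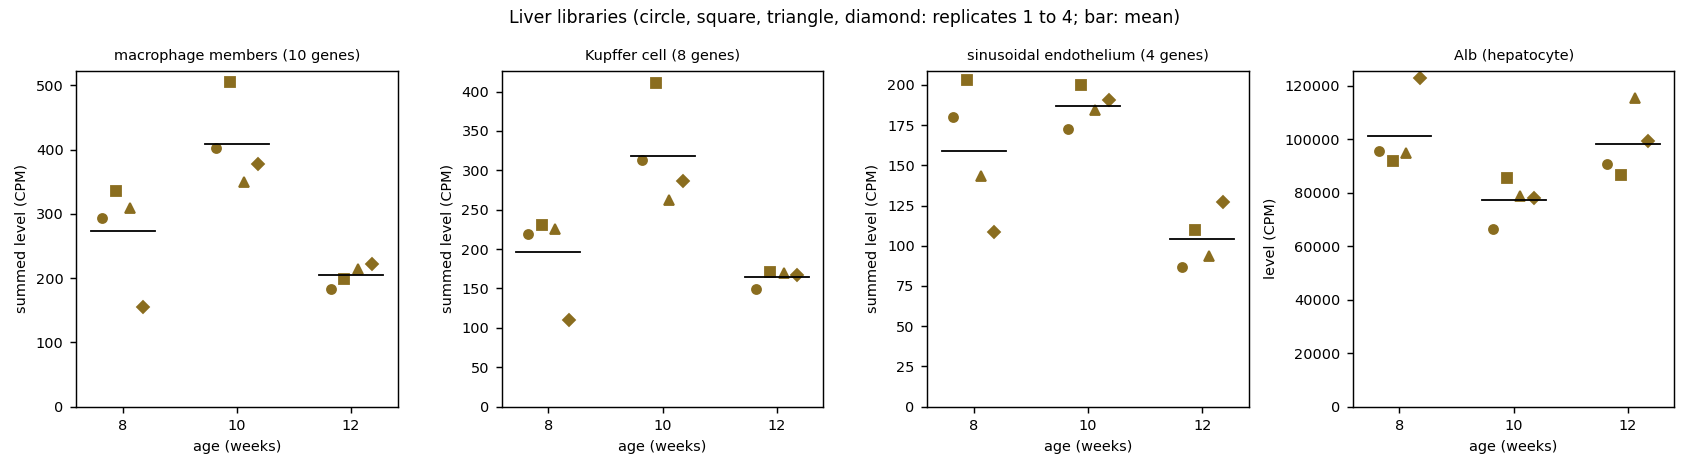
Liver libraries by age in weeks, with the summed level in CPM of the 10 macrophage genes, of 8 Kupffer cell genes and of 4 genes of sinusoidal endothelium, and the level of Alb in CPM; symbols are replicates 1 to 4 and bars are means. The macrophage and Kupffer cell sums are highest at 10 weeks, when Alb lies between 66237 and 85523 CPM.

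Genes linked to macrophage function did not all share the course in liver. Of the 8 genes of the CSF1 pathway and macrophage factors, 7 were lower at 12 than at 10 weeks, with a median of -0.55 log2 units. An unadjusted p under 0.05 was reached by 6 of the 8, beside 14.1% of all genes. In this list Spi1 differed by -0.71 ± 0.23, while the ligand genes Csf1 and Il34 differed by -0.20 ± 0.30 and 0.03 ± 0.25. Of 10 tested receptors of phagocytosis and scavenging, 9 were lower, with a median of -0.52, and Msr1, a scavenger receptor of macrophages, differed by -1.20 ± 0.25. The complement genes apart from C1q, which hepatocytes express, had a median of -0.03 over 6 genes, and the 9 lysosome genes, which all cells use, one of 0.01. In each of these lists edgeR called 0 genes in the liver comparisons of ages, beside the background shares given for liver above.

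In heart the members also tended to lie highest at 10 weeks, with smaller differences. All 10 had a log2 difference above 0 at 10 against 8 weeks, with a median of 0.29, and 9 of 10 lay below 0 at 12 against 10 weeks, with a median of -0.32. Timd4 was the only one whose groups did not overlap at 10 against 8 weeks, where 5.05% of all genes were higher without overlap. It had 0.683, 1.03, 0.289 and 0.825 CPM at 8 weeks, 1.27, 1.74, 2.26 and 2.26 at 10 weeks and 0.934, 1.63, 2.00 and 0.914 at 12 weeks. Without replicate 4 of 8 weeks or replicate 4 of 10 weeks, 4 members were higher without overlap, Timd4 and Mrc1 in both cases, beside 6.46% and 6.63% of all genes. The levels of Timd4 are low, from 6 to 58 pairs in a library. The difference at 10 against 8 weeks was 1.38 ± 0.34 log2 units (adjusted p = 0.0640 in edgeR), and it passed the threshold without replicate 2 of 10 weeks, with an adjusted p of 0.0474.

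Mrc1 had 21.4, 22.8, 26.5 and 31.9 CPM in heart at 8 weeks and 40.6, 43.1, 36.1 and 29.6 at 10 weeks, and replicate 4 of each age lay in the range of the other. It was 0.54 ± 0.14 log2 units higher at 10 weeks (adjusted p = 0.0675 in edgeR), and without replicate 4 of 8 weeks the adjusted p was 0.0446. Cd68 was 0.67 ± 0.18 log2 units higher at 10 weeks (adjusted p = 0.0910 in edgeR), with 2.498 to 3.54 CPM at 8 weeks and 3.40 to 6.15 at 10 weeks, ranges that overlapped in 1 library of 10 weeks. DESeq2 called these 3 genes, Timd4, Mrc1 and Cd68. Csf1r and Cd163 hardly differed between these ages, by 0.04 ± 0.13 and 0.00 ± 0.20 log2 units.

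At 12 against 10 weeks C1qa and C1qc were lower in heart without overlap, where 2.58% of all genes were. C1qc had 37.4, 40.2, 32.0 and 32.4 CPM at 10 weeks and 22.03, 29.0, 27.2 and 26.2 at 12 weeks, a difference of -0.45 ± 0.12 log2 units (adjusted p = 0.227 in edgeR). Without replicate 4 of 10 weeks C1qb and Cd68 were lower without overlap too, beside 3.88% of all genes. At 12 against 8 weeks 5 members were higher and 5 lower, with a median of -0.01, and the groups overlapped for all, while 12.7% of all genes did not.

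Some listed genes that are no members did pass the test in heart at 10 against 8 weeks. C3, the central complement protein, rose by 1.32 ± 0.18 log2 units (adjusted p = 0.00180 in edgeR), and C4b, which acts before it in the classical pathway, rose by 1.33 ± 0.20 (adjusted p = 0.00325). Clec10a, a lectin of macrophages and dendritic cells, rose by 1.23 ± 0.26 (adjusted p = 0.0315). Genes of other organs were also higher at 10 weeks, with Cyp2e1, a liver enzyme, up by 3.43 ± 0.50 (adjusted p = 0.00310), Ttr, a carrier of thyroid hormone made in liver, by 3.27 ± 0.75 (adjusted p = 0.0442) and Lrp2, a receptor of the kidney tubule, by 4.10 ± 0.92 (adjusted p = 0.0415). At 12 against 8 weeks C3 was higher by 0.68 ± 0.17 (adjusted p = 0.0368), and Tie1, a receptor of endothelium, differed by -0.26 ± 0.066 (adjusted p = 0.0362). Alb stood at 0 in the heart libraries of 8 weeks and at 0.0819, 11.1, 0.0822 and 16.0 CPM at 10 weeks, so the libraries of replicates 2 and 4 held RNA of a liver gene. The neutrophil sum was 16.7 CPM in replicate 2 and 3.61 to 3.89 in the other 3 libraries of that age. The part of this RNA in the macrophage genes of heart was not tested, and Kupffer cell genes summed to 1.56 to 2.96 CPM in heart at 10 weeks and 1.43 to 2.93 at 8 weeks, far below the liver.

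In kidney the differences between ages were small. Of 9 members tested, 7 were higher at 12 than at 8 weeks, with a median of 0.26 log2 units. An unadjusted p under 0.05 was reached by 3 of them, beside 11.7% of all genes. Csf1r and C1qa were higher without overlap, where 3.42% of all genes were. Csf1r had 48.2, 52.1, 56.3 and 51.6 CPM at 8 weeks, 46.8, 50.6, 50.5 and 62.6 at 10 weeks and 58.9, 70.3, 59.0 and 61.1 at 12 weeks. It was 0.26 ± 0.084 log2 units higher at 12 than at 8 weeks (adjusted p = 0.281 in edgeR) and 0.23 ± 0.084 higher at 12 than at 10 weeks (adjusted p = 0.196). Without replicate 4 of 10 weeks, the highest of its group, the latter had an adjusted p of 0.0380. Genes of other immune cells were higher at 12 than at 8 weeks as well. The genes of dendritic cells and MHC class II summed to 161 to 189 CPM at 8 weeks and 203 to 324 at 12 weeks, groups that did not overlap, with 7 of 8 genes higher and a median of 0.43 log2 units. The genes of T and NK cells were higher in 6 of 6 tested, by a median of 0.65, and those of monocytes in 3 of 3 tested, by 0.55, with sums that overlapped. In these lists edgeR called 0 genes, and their part in the levels of the members was not tested.

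Adgre1 and Lyz2 owed their kidney means at 12 weeks to part of the libraries. Adgre1 had 3.28, 3.19, 3.05 and 2.64 CPM at 8 weeks and 3.35, 5.09, 7.68 and 2.77 at 12 weeks, and Lyz2 had 3.14, 3.67, 3.78 and 2.59 CPM at 8 weeks and 3.22, 6.91, 6.14 and 2.505 at 12 weeks. For both genes replicates 2 and 3 were high at 12 weeks and replicates 1 and 4 lay in or next to the range of 8 weeks. The differences were 0.64 ± 0.24 and 0.51 ± 0.27 log2 units (adjusted p = 0.347 and 0.494 in edgeR). At 10 against 8 weeks Adgre1 was the member higher without overlap, beside 3.84% of all genes, with 3.50 to 3.74 CPM at 10 weeks, and at 12 against 10 weeks the groups of all 9 overlapped, while 9.13% of all genes did not. Without replicate 4 of 10 weeks, Csf1r was higher and Cd68 lower at 12 weeks without overlap, beside 16.1% of all genes in either direction. Listed genes of other cells that passed the test in kidney were Hmox1, which differed by -1.72 ± 0.27 log2 units at 10 against 8 weeks (adjusted p = 0.0135 in edgeR), and Aqp2, a water channel of the collecting duct, which differed by -1.10 ± 0.19 at 12 against 10 weeks (adjusted p = 0.0239).

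The change from 8 to 12 weeks was compared between organs by an interaction term in the fit of all 36 libraries. Between liver and heart 1 member, Mrc1, passed the adjusted p, where 4.16% of all genes passed it. Mrc1 was 0.35 ± 0.14 log2 units higher at 12 than at 8 weeks in heart (adjusted p = 0.138 in edgeR). Its difference in liver was -0.74 ± 0.22 (adjusted p = 0.160), so neither change passed within its organ. The difference of these changes was -1.09 ± 0.25 (adjusted p = 0.0133 in edgeR). It passed in each of the 43 alternatives run, leaving out each library included, with adjusted p up to 0.0398. The endothelium list moved the same way in this comparison, with 5 of 5 genes lower and a median of -0.61, and edgeR called Pecam1, by a difference of -0.61 ± 0.15 (adjusted p = 0.0223), and Kdr, a receptor for VEGF, by -1.24 ± 0.26 (adjusted p = 0.00636). Of the sinusoidal endothelium genes 3 of 4 were lower, with a median of -0.47 and 0 called. The genes whose spread was most like that of Mrc1 over the 36 libraries were Stab1, a scavenger receptor of sinusoidal endothelium and macrophages, F8, the gene of coagulation factor VIII, and Dse, with r of 0.82, 0.80 and 0.73. The part of endothelial cells in the difference of Mrc1 was not tested. The other 9 members had differences between -0.95 and -0.06 log2 units and did not pass. Between kidney and heart and between liver and kidney 0 members passed in edgeR, where 0.112% and 0.304% of all genes did. DESeq2 and limma-voom also called 0 there, and 1 and 6 members had an unadjusted p under 0.05, beside 11.1% and 11.2% of all genes. Csf1r passed between liver and kidney when replicate 4 of liver at 8 weeks was left out, by -0.84 log2 units with an adjusted p of 0.0280.

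The spread of the macrophage genes among libraries of the same age was shared in liver, largely through a single library. The mean of each group was subtracted from log2 CPM, and Pearson's r was taken for each of the 45 pairs of members as a description, since the libraries share depth and scaling. In liver the median r over 12 libraries was 0.75 with a range of 0.10 to 0.99, but 0.39 without replicate 4 of 8 weeks and 0.25, with a range of -0.75 to 0.95, without replicate 2 of 10 weeks as well. In heart the median was 0.30, and in kidney, over the 36 pairs without Timd4, it was 0.15. The C1q genes were the closest neighbours, with r of 0.93 for C1qa and C1qb over all 36 libraries and 0.99 for C1qb and C1qc in liver. The lowest pair in liver was Cd68 and Cd163.

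**Figure D5:**
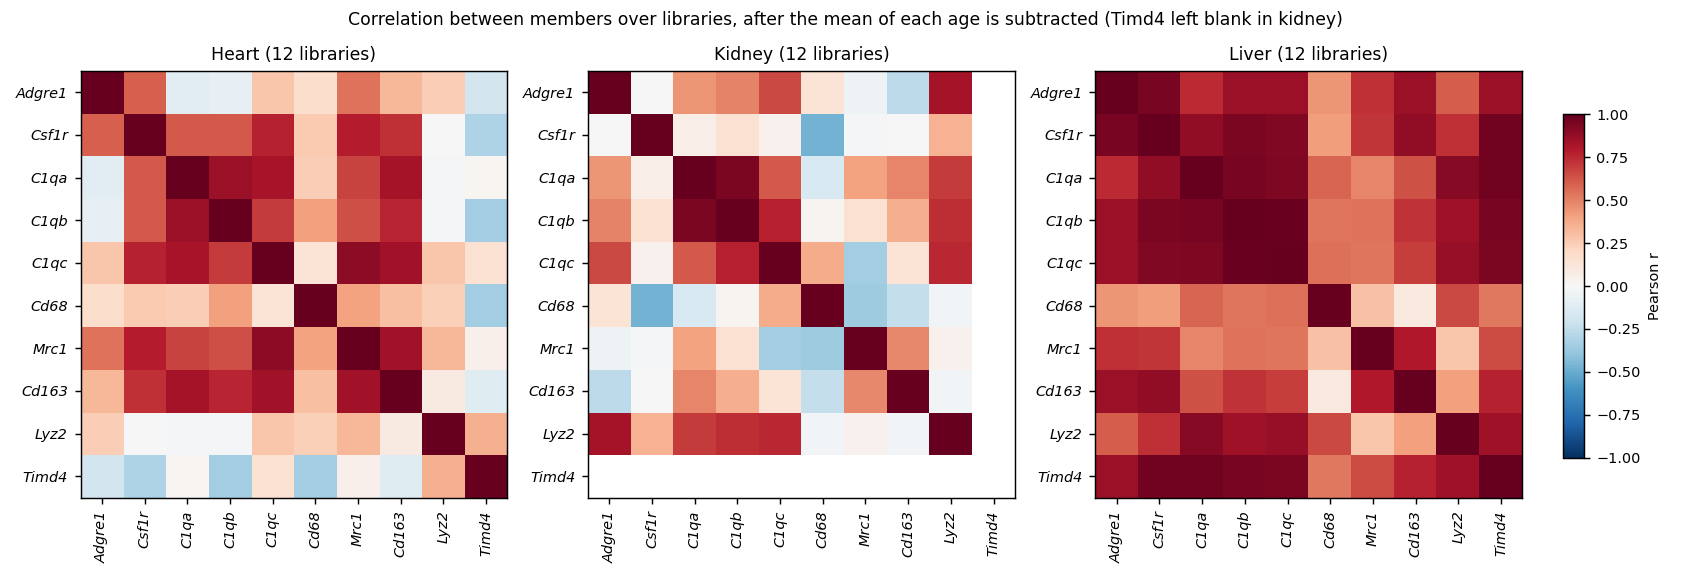
Pearson's r between each pair of macrophage genes over the 12 libraries of heart, kidney and liver, after the mean of each age was subtracted from log2 CPM; red is positive and blue negative. The liver panel is red throughout, with a lowest r of 0.10, a pattern whose median falls from 0.75 to 0.39 without replicate 4 of 8 weeks, and the C1q genes form a red block in each organ.

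Outside the members, 11949 genes were ranked by the same r over all 36 libraries. The genes most like Csf1r were H2-DMa, a chaperone of MHC class II loading, with r of 0.76, Epb41l3 with 0.76 and Tlr7, a sensor of RNA in endosomes, with 0.72. Those most like C1qa were Ctss, a lysosomal protease of antigen-presenting cells, with 0.82, Siglece with 0.77 and Siglec1, a sialic acid receptor of macrophages, with 0.74. Those most like Timd4 were Pvt1, Vps37d and Sp100 with 0.68, 0.67 and 0.66, though only 6 pairs fell on Timd4 in all kidney libraries. These rankings, that of Mrc1 included, were not repeated without the liver libraries that stood apart.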

How the data were processed

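The deposited files hold raw counts of read pairs per gene for 36 libraries, 4 for each tissue and age. Per the study's methods and the labels, the authors trimmed reads with cutadapt 4.2, checked them with FastQC 0.11.9, aligned them with STAR 2.7.11b to GRCm39 (Ensembl annotation) and counted uniquely aligned pairs per gene, of which the unstranded column was used. The first strand held 49.8% to 50.2% of the stranded pairs. Depth was 21031599 to 33637390 pairs, which limits the precision of low genes such as Timd4.

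Genes were kept with at least 2 samples above 0 and a mean count of at least 10 in an age group of the tissue (15137, 17649 and 14672 genes in heart, kidney and liver, 19716 in the joint fit). Ages were compared within a tissue, and tissues over all 36 libraries, with edgeR 4.0.16 in R 4.3.3 (TMM, quasi-likelihood F-test, Benjamini-Hochberg adjustment over all genes tested, adjusted p under 0.05). Alternatives used DESeq2 1.42.0, limma 3.58.1, other filters, scalings and columns, a replicate block and each library left out. On simulated data with 200 changed genes, the test found 64% of 2-fold and 90% of 4-fold changes in liver at 12 against 8 weeks over 14672 genes. Levels are CPM with TMM factors over 36 libraries.

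The text names the 10 members, the 3 genes most correlated with Csf1r, C1qa and Timd4, and from each list of markers up to 4 genes past the threshold between ages and at most 4 further by level. Csf1, Il34, Spi1, Msr1, Pecam1, Kdr, Stab1, F8, Dse and Hmgxb3 fall outside this rule and were chosen after their values were seen. The members and lists were chosen with earlier results of these data known. The replicates are different animals per the study's methods, and whether a number marks the same animal in the 3 tissues is not given in the sources used here.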

Additional observations from a re-analysis of the deposited data

Results flagged for a closer look

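In 87 groups of 4 libraries in which a macrophage gene reached at least 10 pairs, 2 had a library far from the other 3 by Dixon's test at the 95% level, which chance gives in about 1 in 20 groups. Cd68 in liver at 12 weeks had 9.54 CPM in replicate 1 and 4.47 to 4.85 in the others. Cd163 in kidney at 10 weeks had 1.57 CPM in replicate 2 and 0.626 to 0.733 in the others.

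The change of Mrc1 from 8 to 12 weeks differed between liver and heart by -1.09 ± 0.25 log2 units in the interaction test of edgeR (adjusted p = 0.0133). It was 0.35 in heart and -0.74 in liver, and neither passed the adjusted p within its organ. The groups of 8 and 12 weeks overlapped in each of these organs, in liver through replicate 4 of 8 weeks with 33.5 CPM, where the other 3 had 54.1 to 79.3 and those of 12 weeks 29.1 to 46.2.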

How the results depend on the processing

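For the 69 differences of single members with an unadjusted p under 0.05, 2100 values under the alternatives kept their direction and side of the threshold, 60 passed it, 2 no longer did, and none changed sign. For the other 78, 79 of 2158 values changed sign, 1 of them past the threshold, C1qa between liver and heart with plain library sizes (-0.24). Leaving out a library also turned the sign of the members' median in kidney at 12 against 10 weeks (-0.13 to 0.21) and in heart at 12 against 8 weeks (-0.09 to 0.15). Without a filter on low counts, edgeR called 1 member in heart at 12 against 8 weeks, 4 at 10 against 8 weeks and 3 at 12 against 10 weeks, 2 in kidney at 12 against 8 weeks, 1, 7 and 9 in liver at 12 against 8, 10 against 8 and 12 against 10 weeks, and 3 in the difference of changes between liver and kidney. DESeq2 called 3 in heart at 10 against 8 weeks and 1, 3 and 8 in the same liver comparisons, and the fit of only the 2 ages called 5 in liver at 12 against 10 weeks. Leaving out a library gave 0 to 1 calls in heart at 10 against 8 weeks (Mrc1 without replicate 4 of 8 weeks, Timd4 without replicate 2 of 10 weeks), 0 to 1 in kidney at 12 against 10 weeks, 0 to 6 in liver at 12 against 10 weeks and 0 to 1 in the difference of changes between liver and kidney. The cause was not tested, and the shares of all genes called in these fits are not given here. Members whose groups did not overlap, recounted without each library as an alternative chosen after seeing the data, were 7 to 8 in liver at 10 against 8 weeks, 9 to 10 at 12 against 10 weeks and 0 to 6 at 12 against 8 weeks (6 without replicate 4 of 8 weeks, 1 without replicate 4 of 12 weeks). They were 1 to 4, 2 to 4 and 0 to 1 in the same comparisons of heart, and 1 to 2, 0 to 2 and 2 to 3 in kidney. Without a library, the shares of all genes by the same rule rose to at most 9.73%, 8.08% and 16.4% in these comparisons of liver. In heart they rose to 9.35%, 6.25% and 25.5%, and in kidney to 6.44%, 16.1% and 6.16%. With the replicate block, 0 members were called in the 9 comparisons of ages. Within a tissue that block tied equal numbers of different ages, which are different mice, so it cannot address animals shared between tissues. In the fit of all libraries the block tied equal numbers of an age across tissues. There 10, 7 and 10 members were called between kidney and heart, liver and heart and liver and kidney, and 0, 1 and 0 in the differences of changes. The share of all genes called with the block is not given here. Same-numbered libraries of an age correlated across tissues with a median r of 0.101 over 36 pairs, 18 of them over 0.1. For different numbers the median was -0.0438 over 108 pairs, 1 of them over 0.1, and 26 of 36 best partners had the same number. That is a hint, from the data only, that some numbers mark the same animal. As the sources used here do not state it, the main fit took all libraries as independent. The block of age and number in the fit of all libraries was an alternative. Depth limits Timd4 in kidney, which was not tested between ages.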
